A study of Mus musculus with 4 samples.

Results

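The mature miRNAs miR-193a-3p, miR-193b-3p and miR-365-3p were followed in the exosome fraction of differentiating 3T3-L1 cells. They were taken by their exact names on the array, which gave 3 of the 1881 mouse miRNAs that each array measured. 3T3-L1 is a mouse line of fibroblast-like preadipocytes that fill with lipid in differentiation medium and serve as a model of white rather than brown fat. The RNA was hybridised to single-colour (Cy3) arrays for mouse miRNAs. There were 4 of them, 1 a day at D0, D4, D12 and D16, counted in days from the change to differentiation medium. D0 medium came from cells kept in growth medium made with low-glucose DMEM. For the later days the cells were kept in high-glucose DMEM. They had received 1-methyl-3-isobutylxanthine, dexamethasone and insulin for 2 days and insulin alone afterwards. All media contained FBS depleted of exosomes, together with penicillin and streptomycin. Each array carried a pool, of 2 independent experiments mixed by protein content in the methods and of 3 in the sample labels, so that no day had a replicate array, no p-value is given, and the error printed with a value covers variation within an array only. Amount of exosomes in the medium and amount of a miRNA per exosome could not be told apart in such a fraction.

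A miRNA is cut from a hairpin precursor and guides the Argonaute protein to messenger RNAs that pair with its seed, the stretch near its 5′ end. miR-193b and miR-365 are encoded next to each other and are known as a cluster enriched in brown fat, which in cell culture favours brown adipocyte differentiation and holds back muscle differentiation, although mice without the cluster still form brown fat. miR-193a is the paralog of miR-193b and lies beside a further copy of the miR-365 gene.

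The sequences show which of these miRNAs can act on the same targets, with the seed (bases 2 to 8) in capitals. They are RefSeq sequences (GRCm38.p6), in which all 4 hairpins of the group were found.
mmu-miR-193a-3p: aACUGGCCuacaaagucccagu
mmu-miR-193b-3p: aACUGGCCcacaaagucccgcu
mmu-miR-365-3p: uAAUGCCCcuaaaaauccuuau

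miR-193a-3p and miR-193b-3p had the seed ACUGGCC in common, and no other of the 1679 mature miRNAs in the reference carried it at these positions. Counted from 1 at the 5′ end, with the base of miR-193a-3p first, they differed by U9C, A20G and G21C, all outside the seed, and matched at 19 of 22 bases. The seed of miR-365-3p, AAUGCCC, was found in no other mature miRNA of the reference. The array had separate probes for the 3 miRNAs. Cross-hybridisation between miR-193a-3p and miR-193b-3p was not tested.

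The hairpins are given to show where the measured arm lies, with the 3′ arm in capitals. Mir193a lies at chr11:79711969-79712034 and Mir365-2 at chr11:79726400-79726511, with 14365 bases between them. Mir193b lies at chr16:13449523-13449601 and Mir365-1 at chr16:13453840-13453926, with 4238 bases between them. All 4 are on the plus strand of GRCm38.p6.
Mir193a: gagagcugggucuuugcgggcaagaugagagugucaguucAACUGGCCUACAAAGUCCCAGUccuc
Mir193b: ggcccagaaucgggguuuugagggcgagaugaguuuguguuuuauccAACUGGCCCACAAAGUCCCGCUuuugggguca
Mir365-1: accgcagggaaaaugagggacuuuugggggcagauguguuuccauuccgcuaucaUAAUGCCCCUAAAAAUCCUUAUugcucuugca
Mir365-2: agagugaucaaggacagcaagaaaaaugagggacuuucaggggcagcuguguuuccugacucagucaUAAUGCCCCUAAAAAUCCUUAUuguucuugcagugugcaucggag

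Both miR-365 hairpins yield the same 22 bases of miR-365-3p, so its signal is the sum of the chromosome 11 and chromosome 16 copies. In the RefSeq gene table Mir193b and Mir365-1 lie within the spans of the long noncoding RNA genes Gm32817 and Gm53058, whereas Mir193a and Mir365-2 lie inside no other listed gene. Mir193a and Mir365-2 are neighbours in that table, as are Mir193b and Mir365-1.

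All 3 miRNAs were near or under the detection limit at D0 and were detected on each later day. Their courses then parted. Without scaling, miR-193b-3p and miR-365-3p were brightest at D12 and dimmer at D16, an order that 4 of the scalings between arrays turned for miR-365-3p. On the later days miR-193a-3p was dimmest at D4 and, without scaling, had nearly equal signals at D12 and D16. Each scaling put miR-193a-3p higher at D16 than at D12. The signal is the total gene signal, the intensity summed over the probes of a miRNA whose own signal exceeded 3 times their error, with no scaling between arrays.

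The signal of miR-193b-3p was 2.63 ± 0.864 (technical error) at D0 and reached 26.6 ± 2.61 by D4 and 43.6 ± 3.65 by D12, after which D16 stood at 26.6 ± 2.39. The error was 32.9% of the signal at D0 and between 8.38% and 9.82% on the later days. D0 was far below the other days. Without scaling, D12 lay above D4 and D16 by more than the summed technical errors.

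For miR-365-3p no signal was called at D0, with a limit of 5.11 (3 times the error summed over its probes). D4 gave 27.9 ± 2.61, D12 gave 41.1 ± 3.34 and D16 gave 31.8 ± 2.60. On the unscaled arrays D12 was the highest day, and D4 and D16 differed by less than their summed errors. With the effective spot size divided out the D16/D12 ratio was 0.978, while 4 other scalings put D16 above D12. Scaled to the 75th percentile over the miRNAs found on every array, the D16/D12 ratio of miR-365-3p was 1.12 and its D16/D4 ratio 2.14. With the same scaling the D16/D12 ratio of miR-193b-3p was 0.889, a difference within the summed technical errors. Its D16/D4 ratio was then 1.89.

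miR-193a-3p was not detected at D0, with a limit of 4.95. It first appeared on the D4 array at 10.9 ± 1.62, and the D12 and D16 arrays read 27.5 ± 2.81 and 28.8 ± 2.72. Both D12 and D16 were far above D4. Without scaling, D12 and D16 did not differ beyond their errors. Scaled to the 75th percentile the D16/D12 ratio of miR-193a-3p was 1.52, and from the mean of all spots it was 1.32.

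**Figure D1:**
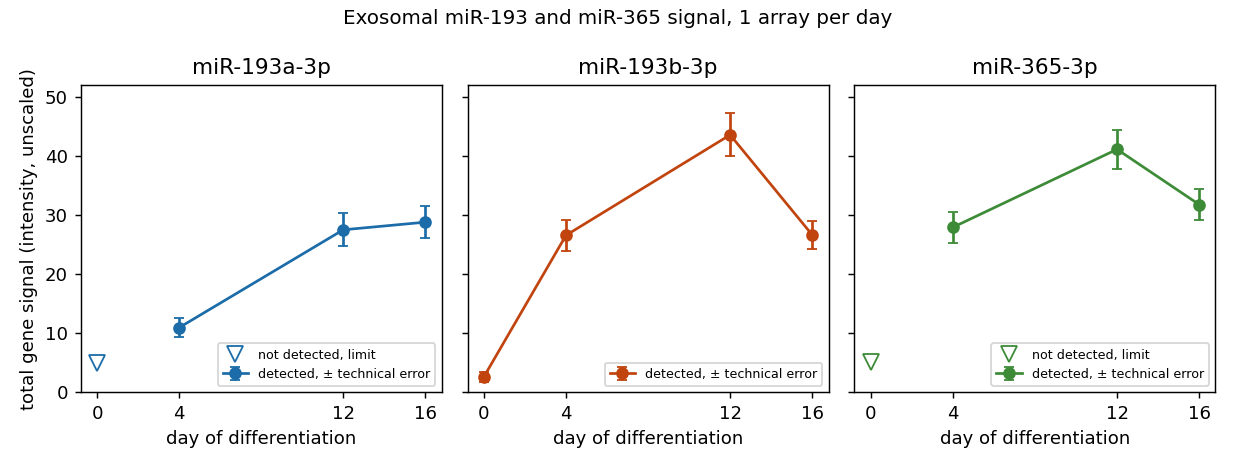
Total gene signal (intensity, unscaled) of miR-193a-3p, miR-193b-3p and miR-365-3p against the day of differentiation, with 1 array per day. Filled points carry the technical error within the array and open triangles mark the limit of a miRNA that was not detected. The D12 points of miR-193b-3p (43.6) and miR-365-3p (41.1) stand above D4 and D16 (for miR-365-3p D16 is above D12 after scaling to the 75th percentile). miR-193a-3p goes from 10.9 at D4 to 27.5 at D12 and 28.8 at D16 (D16/D12 ratio of 1.52 after the same scaling).

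Each miRNA was read by 2 probes of 15 spots each, named a and b here, and no spot was saturated. At D0, 0 of the 30 spots of each miRNA were marked well above background. At D4 this held for 15 of the 30 spots of miR-193a-3p and for all 30 of miR-193b-3p and of miR-365-3p. At D12 and D16 all 30 spots of the latter were again marked, while miR-193a-3p had 17 and 27.

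The D0 call of miR-193b-3p rested on probe b alone, whose signal of 2.63 was 1.01 times its limit of 2.59. Probe b of miR-365-3p had a D0 signal of 2.57 against a limit of 2.58, or 0.993 times the limit. These values lie just inside and just outside the call, and the D0 difference in detection between miR-193b-3p and miR-365-3p is no larger than that. When a miRNA was called only where 50% or more of a probe's spots were well above background, miR-193b-3p was detected on 3 of the 4 arrays, as miR-193a-3p and miR-365-3p were.

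Mean spot signals at D0 were above 0 in all 3 miRNAs. They were 3.09 ± 4.84 (SD over 30 spots) for miR-193a-3p, 8.49 ± 5.47 for miR-193b-3p and 10.3 ± 4.62 for miR-365-3p. In miR-193b-3p and miR-365-3p 29 of the 30 spots were positive, and in miR-193a-3p 20 of the 30. The 1000 negative control spots of the D0 array had a mean of 1.73 and an SD of 18.8. On the later arrays that SD was between 3.39 and 4.02.

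Probe a of miR-193a-3p accounts for its smaller number of marked spots. Its spots had a mean of -0.378, 7.38, 17.7 and 24.3 from D0 to D16, and it entered the total signal only at D12 and D16. Probe b had means of 6.56, 39.7, 85.3 and 111 on the same days. Both probes thus had their highest spot mean at D16.

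The spots of miR-193b-3p followed another order on both probes. Probe a had means of 4.60, 31.5, 50.1 and 38.6 from D0 to D16, and probe b of 12.4, 64.9, 112 and 88.3. For miR-365-3p the means of probe a were 8.42, 43.6, 63.8 and 62.3, and those of probe b 12.1, 57.7, 89.3 and 87.5. On the spot scale miR-193b-3p was lower at D16 than at D12 on both probes, and miR-365-3p was level.

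**Figure D2:**
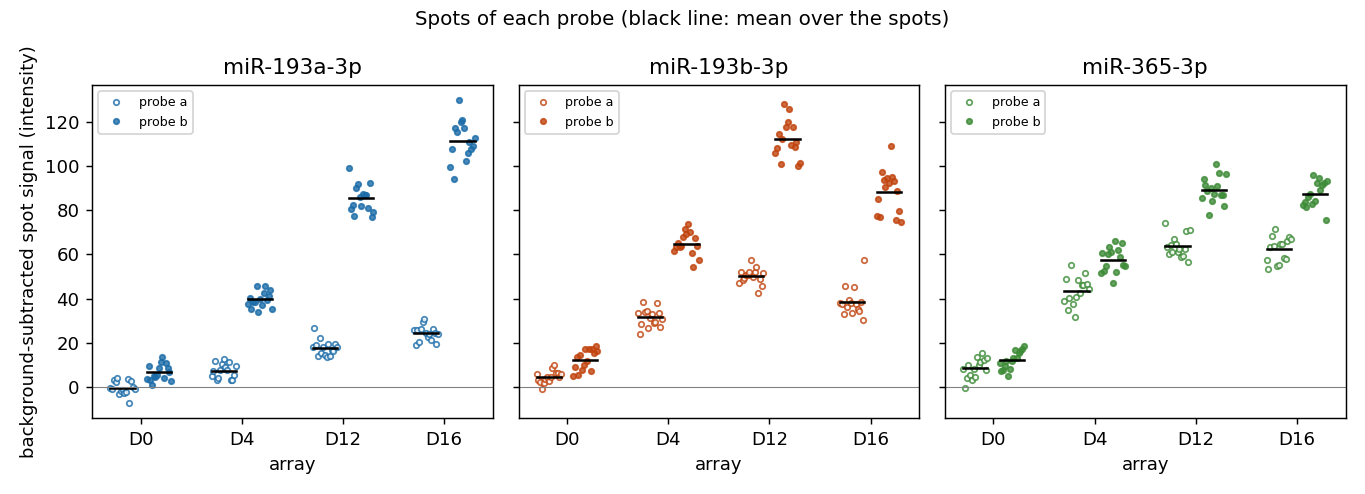
Background-subtracted signal (intensity) of every spot of the 2 probes of each miRNA on the D0, D4, D12 and D16 arrays, with spots ordered by column within a probe and black lines at the mean of 15 spots. Probe a is open and probe b filled. Both probes of miR-193a-3p are highest at D16 (means of 24.3 and 111), and both probes of miR-193b-3p are highest at D12 (50.1 and 112).

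Spot means and total signals differ in their D16/D12 ratio because the software scales the total with an effective spot size. The D0 and D16 totals used the default of 0.6, and the D4 and D12 totals used estimates of 0.780 and 0.760. From the mean of all spots the D16/D12 ratio was 1.32 for miR-193a-3p, 0.782 for miR-193b-3p and 0.978 for miR-365-3p. From the total signals it was 1.05 ± 0.146, 0.611 ± 0.0751 and 0.773 ± 0.0890. The order of the 3 miRNAs was the same on both scales.

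The ratio to D0 was large for all 3 miRNAs without scaling. For miR-193b-3p the D4/D0 ratio was 10.1 ± 3.47 (propagated technical error), the D12/D0 ratio 16.6 ± 5.63 and the D16/D0 ratio 10.1 ± 3.46. miR-365-3p was at least 5.46-fold, 8.05-fold and 6.22-fold higher than D0 on these 3 days. miR-193a-3p was at least 2.21-fold, 5.55-fold and 5.81-fold higher. These bounds are ratios to the D0 limits on the scale of the total gene signal, cannot be ordered against the ratio of miR-193b-3p and do not bound a ratio on another scale. With the effective spot size divided out, which is nearer to the scale of the spots, they were 4.20, 6.36 and 6.22 for miR-365-3p and 1.70, 4.38 and 5.81 for miR-193a-3p.

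Only probe b of miR-193b-3p was summed at D0 and both of its probes later. Over probe b alone the 3 ratios were 6.81 ± 2.38, 11.5 ± 3.96 and 7.13 ± 2.47. The peak at D12 was therefore also present when the same probe was read on each day.

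A ratio above 2 was reached by all 3 miRNAs on every later day, against a background in which many miRNAs did so. Of all miRNAs detected on the later day, 55.9% (238 of 426) were above 2 at D4, 44.8% (182 of 406) at D12 and 30.8% (117 of 380) at D16. The later arrays were brighter as a whole. Over the 283 miRNAs detected on all 4 arrays the median D4/D0, D12/D0 and D16/D0 ratios were 2.59, 1.99 and 1.32. Relative to this median, the 3 ratios of miR-193b-3p were 3.91-fold, 8.31-fold and 7.66-fold higher. When every miRNA was read over the probes summed on both days, they were 2.88, 6.19 and 5.57 times the median. At D12 the bounds of miR-365-3p and miR-193a-3p were 4.04 and 2.78 times the median over the 283 miRNAs. At D4 the bound of miR-193a-3p was 0.854 times that median, but it divides probe b alone by the D0 limit of both probes. Over probe b on both days the D4/D0 bound was 4.38, above the median of 2.59.

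After scaling to the 75th percentile over the set detected on all 4 arrays, a ratio above 2 was left to 4.93% of miRNAs by D4, to 9.36% by D12 and to 11.3% by D16. With this scaling miR-193b-3p had ratios of 2.37, 5.04 and 4.48 at D4, D12 and D16. The bounds of miR-365-3p were 1.28, 2.45 and 2.75 on these days. Those of miR-193a-3p were 0.518, 1.69 and 2.57, and a bound below 1 gives no direction. Its D4 bound divides probe b alone by the D0 limit of both probes. Thus 1, 2 and 3 of the 3 miRNAs were above 2 at D4, D12 and D16. The count at D4 rests on miR-193b-3p, whose total holds 1 probe at D0 and 2 later. Over probe b alone its unscaled D4/D0 ratio was 6.81, and the factor divided out at D4 was 4.26. Over that probe the scaled ratio was therefore not above 2.

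**Figure D3:**
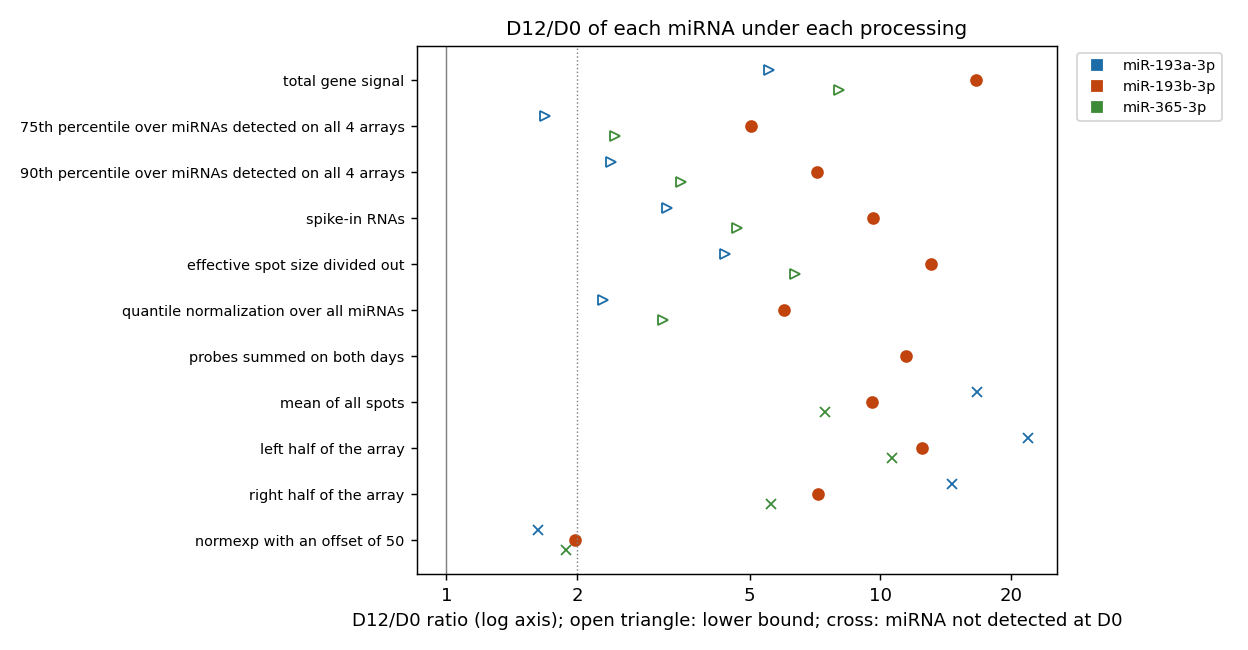
D12/D0 ratio (log axis) of each miRNA under each processing, with filled points for miR-193b-3p, open triangles for lower bounds and crosses for ratios to D0 spots of miRNAs that were not detected there, which are no measured folds. miR-193b-3p ranges from 1.98 with the normexp background correction to 16.6 with the total gene signal as deposited.

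Signals of the D0 array were low and uneven, with a median coefficient of variation between replicate spots of 21.1% against at most 8.07% on the later arrays. Spots of miR-193b-3p and miR-365-3p shared this unevenness. Summed over its 2 probes, the D0 spot mean of miR-193b-3p was 13.3 in the left part of the array and 21.9 in the right part, and that of miR-365-3p was 14.3 and 27.6. From left to right, the D12/D0 ratio of spot means was 12.5 and 7.17 for miR-193b-3p. For miR-365-3p and miR-193a-3p, which were not detected at D0, such a ratio is no measured fold.

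The rank of a ratio among all miRNAs does not depend on a factor common to an array. Among the 297 miRNAs detected at D0 and D12, miR-193b-3p had the ninth highest D12/D0 ratio, between miR-103-3p (17.5 ± 4.20) and miR-107-3p (13.9 ± 3.27), from which it did not differ beyond the technical errors. It ranked 14 of 317 at D4 and 10 of 289 at D16. Over the probes summed on both days it ranked 26 of 316, 12 of 297 and 13 of 289 at D4, D12 and D16. miR-365-3p and miR-193a-3p have no such rank, as they were not detected at D0.

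All 3 miRNAs had a higher signal at D12 than at D4, also after each scaling, while the median miRNA was lower at D12 without scaling. The D12/D4 ratio was 2.51 ± 0.452 for miR-193a-3p, 1.64 ± 0.212 for miR-193b-3p and 1.47 ± 0.183 for miR-365-3p. A ratio above 1.25, the tolerance used for a level signal, was reached by all 3 and by 15.0% (56 of 374) of the miRNAs detected on both days, whose median was 0.865. With the 75th percentile this share was 36.6%. The ranks were 11 for miR-193a-3p, 31 for miR-193b-3p and 35 for miR-365-3p among these 374.

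For miR-193a-3p, probe a was summed at D12 but not at D4. Over probe b alone its D12/D4 ratio was 2.10 ± 0.387, which ranked 7 of 373 when every miRNA was compared over the same probes. The neighbours of miR-193a-3p in the first ranking, miR-542-5p at 2.61 ± 0.968 and miR-19a-3p at 2.45 ± 0.632, did not differ from it beyond the technical errors. Those of miR-193b-3p were miR-130a-3p (1.69 ± 0.176) and let-7c-5p (1.63 ± 0.185). Those of miR-365-3p were miR-148b-3p (1.57 ± 0.603) and miR-500-3p (1.43 ± 0.433). These pairs too lay within the errors.

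From D12 to D16 the array dimmed again, with a median ratio of 0.703 over the 371 miRNAs detected on both days. Only 4.31% (16 of 371) of these had a ratio above 1, against 57.4% (213) with the 75th percentile. miR-193a-3p was among them and ranked 14, but its unscaled ratio of 1.05 was within its technical error of 1. With the 75th percentile the ratio of miR-193a-3p was 1.52. miR-365-3p ranked 101 and miR-193b-3p 317. Relative to the median over the miRNAs detected on all 4 arrays, the ratio was 1.51-fold for miR-193a-3p, 1.11-fold for miR-365-3p and 0.880-fold for miR-193b-3p. Whether miR-365-3p fell or rose in this step depended on the scaling, since its D16/D12 ratio was 1.12 with the 75th percentile.

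Across the whole span from D4 to D16, miR-193a-3p had the sixth highest ratio of 356 miRNAs, 2.63 ± 0.462, and over probe b alone it was 2.16 ± 0.394 and ranked 5 of 355. Its neighbours in the first ranking were miR-101a-3p (2.67 ± 0.882) and miR-486a-5p (2.56 ± 0.828), with which it overlapped within the errors. miR-365-3p was at 1.14 ± 0.142 (rank 27) and miR-193b-3p at 1.00 ± 0.133 (rank 37). The median over the 356 miRNAs was 0.592. These ratios are unscaled. With the 75th percentile the D16/D4 ratio was 4.95 for miR-193a-3p, 2.14 for miR-365-3p and 1.89 for miR-193b-3p.

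**Figure D4:**
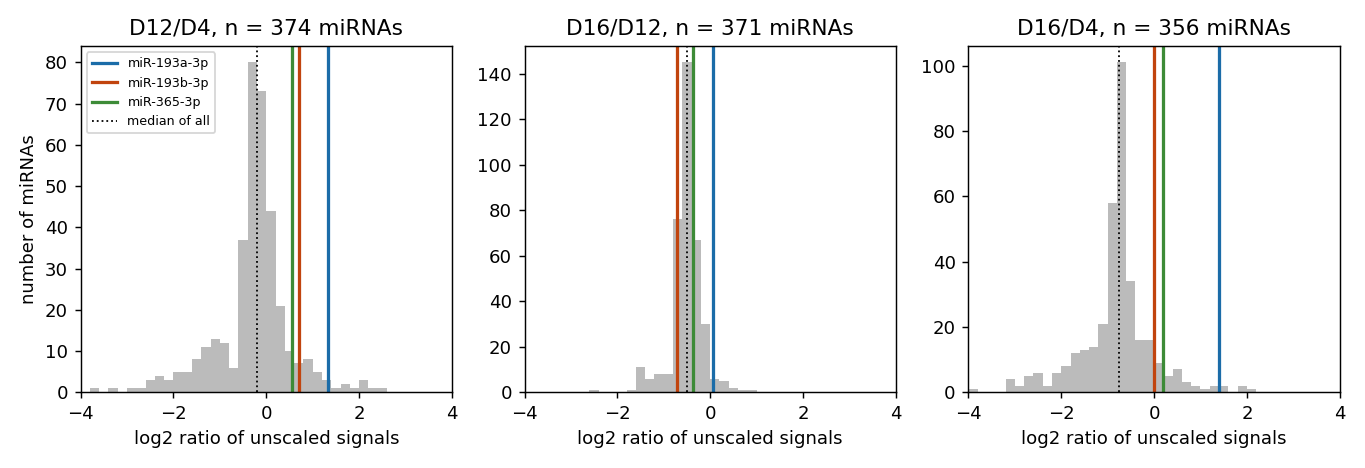
Number of miRNAs by log2 ratio of the unscaled signals for D12/D4 (374 miRNAs), D16/D12 (371) and D16/D4 (356), in bars without the 3 miRNAs. Coloured lines mark miR-193a-3p, miR-193b-3p and miR-365-3p and the dotted line the median of all. In D12/D4 and D16/D4 the 3 lines lie to the right of the median, and in D16/D12 miR-193b-3p lies to its left.

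A direct comparison of courses within the same arrays is free of any common factor. The D16/D4 ratio of miR-193a-3p was 2.62 ± 0.578 times that of miR-193b-3p and 2.31 ± 0.497 times that of miR-365-3p. Over the probes summed on both days these values were 2.16 ± 0.486 and 1.90 ± 0.419, each more than 2 technical errors above 1. Between miR-365-3p and miR-193b-3p this value was 1.14 ± 0.207, so that a difference of this size was not beyond the error. No replicate array was available to test any of the 3 comparisons. With the normexp correction, in which an offset of 50 is added to every spot, the first 2 values were 1.30 and 1.18.

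In steps, miR-193a-3p exceeded miR-193b-3p by 1.53 ± 0.339 from D4 to D12 and by 1.71 ± 0.318 from D12 to D16. Over shared probes the first step was 1.28 ± 0.288, within its error, and the second was the same as before. Read over the same probes, the 2 miRNAs of the same seed thus differed beyond the error in the step from D12 to D16 and not in the step from D4 to D12. The values of the 2 steps overlapped within their errors, so that the difference cannot be placed in 1 of them.

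The other arms of the hairpins were measured as well. They are shown with their seeds in capitals, since none of them has a seed in common with the 3′ arms.
mmu-miR-193a-5p: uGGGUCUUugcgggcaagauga
mmu-miR-193b-5p: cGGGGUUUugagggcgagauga
mmu-miR-365-1-5p: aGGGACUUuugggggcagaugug
mmu-miR-365-2-5p: aGGGACUUucaggggcagcugug

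None of these 4 miRNAs was detected on any array. The limits at D12 were between 6.58 and 6.59. Only miR-365-1-5p and miR-365-2-5p could have told the 2 miR-365 genes apart, as they differ by U10C, G11A and A19C, counted from 1 at the 5′ end with the base of miR-365-1-5p first. A spot of miR-193b-5p at D0 stood at 118, but the signal of its probe stayed under the limit.

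The most similar courses were sought by the Euclidean distance between log2 signals, each centred on its mean over the days on which the member was detected. Scaling an array by 1 factor leaves these distances as they are. For miR-193b-3p, over 4 arrays and 282 miRNAs, the nearest were let-7c-5p (distance 0.151), miR-106b-5p (0.244), miR-199b-5p (0.318), miR-107-3p (0.337) and miR-25-3p (0.382). let-7c-5p had signals of 15.0, 168, 274 and 175 from D0 to D16, highest at D12 as miR-193b-3p was, and its D16/D12 ratio was 0.927 with the 75th percentile.

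For miR-365-3p, over D4, D12 and D16 and 349 miRNAs, the nearest were miR-500-3p (0.0366), miR-10b-5p (0.108), miR-7042-5p (0.132), miR-148b-3p (0.133) and miR-370-3p (0.141). miR-193b-3p came 24 in this order, at 0.239. The course of the clustered partner was thus close to that of miR-365-3p but was not among the 5 closest.

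For miR-193a-3p, over the same 3 arrays, the nearest were miR-218-5p (0.315), miR-101a-3p (0.400), miR-542-5p (0.407), miR-542-3p (0.453) and miR-19a-3p (0.461). miR-365-3p came 23 and miR-193b-3p 34, at 0.866 and 0.987. All 5 nearest miRNAs were undetected at D0, as was miR-193a-3p, although D0 was not used for the distance. Without scaling the 5 had D16/D12 ratios of 0.679 to 0.771, beside 1.05 for miR-193a-3p. With the 75th percentile they were at 0.986 to 1.12, beside 1.52 for miR-193a-3p.

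Other miRNAs with known roles in brown or beige fat were read beside the 3. Of the 10 further miRNAs described as favouring these cells, 7 were detected at D12 and 4 of the 7 had an unscaled D12/D0 ratio above 2, beside 44.8% of all miRNAs. The median of the 7 was 2.09, with bounds for miRNAs not detected at D0, against 1.84 over all 406 miRNAs detected at D12. With the 3 members included it was 4.63. miR-26b-5p had signals of 2.73, 33.6, 61.6 and 44.5 from D0 to D16, and miR-26a-5p of 4.52, 64.5, 85.5 and 61.2. Both belong to a family that favours thermogenic genes in fat cells, and both were highest at D12 without scaling, while with the 75th percentile their D16/D12 ratios were 1.05 and 1.04.

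miR-182-5p, described as maintaining brown adipocytes, had signals of 3.15, 12.1, 11.7 and 10.4. Its D12/D4 ratio was 0.968 without scaling and 1.25 with the 75th percentile, so that no direction after D4 held. miR-378a-3p, from an intron of the gene of the coactivator PGC-1 beta, was detected only at D12 (10.4) and D16 (8.92). miR-30b-5p and miR-30c-5p were detected from D4 on, with unscaled bounds at D12 of 1.58 and 1.51. With the 75th percentile these were 0.479 and 0.459 and gave no direction. miR-455-3p was detected at D12 alone (4.14), below what the D0 array could have missed. miR-203-3p, miR-196a-5p and miR-32-5p were not detected on any array.

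miRNAs described as opposing brown fat also had ratios above 2. Of 9, 6 were detected at D12 and 5 of the 6 had a ratio above 2, beside 44.8% of all miRNAs, with a median of 4.56. miR-106b-5p (18.2), miR-125b-5p (9.07), miR-34a-5p (5.69) and miR-27a-3p (3.44) were measured on both days. miR-93-5p was at least 3.34-fold higher. miR-155-5p, known from inflammation, was detected only at D4, at 33.9. miR-27b-3p had a bound below 1 and thus no direction. miR-133a-3p and miR-133b-3p, which target the brown fat regulator Prdm16, were not detected on any array.

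Among 9 miRNAs of general adipogenesis, 8 were detected at D12 and 4 of the 8 had a ratio above 2, beside 44.8% of all miRNAs, with a median of 1.78 against 1.84. miR-103-3p and miR-107-3p, which act on insulin sensitivity, were at 17.5 and 13.9. miR-148a-3p was detected at D12 (25.7) and D16 (22.9) and was at least 5.23-fold higher at D12. miR-378a-3p, also in this list, had an unscaled bound of 2.09. With the 75th percentile the bounds of miR-148a-3p and miR-378a-3p were 1.59 and 0.636, the latter without a direction. The other 4 detected at D12, miR-143-3p, miR-204-5p, miR-210-3p and miR-335-5p, had bounds between 1.00 and 1.46, and miR-145a-5p was not detected.

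After scaling by the 75th percentile 2 of 7, 2 of 6 and 2 of 8 detected miRNAs of the favouring, opposing and general lists, the 3 members left out, were above 2, beside 9.36% of all miRNAs. All lists were written with earlier results of these arrays known. From D12 to D16, 0 of the 6, 6 and 7 miRNAs of the lists that were detected on both days had a higher signal at D16, leaving out the 3 members, beside 4.31% of all miRNAs. With the 75th percentile 6, 3 and 5 of them did, beside 57.4%.

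**Figure D5:**
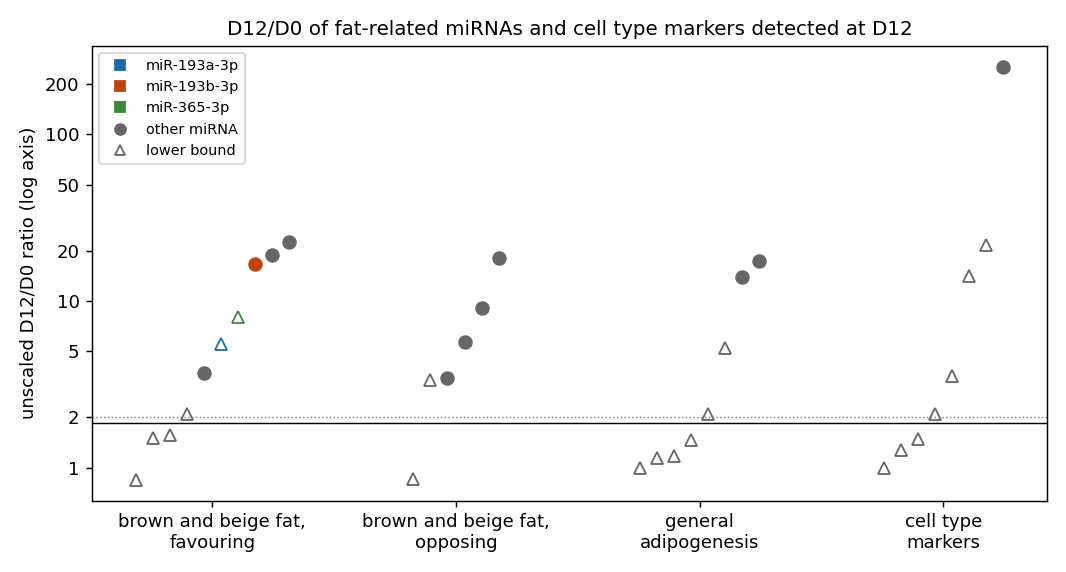
Unscaled D12/D0 ratio (log axis) of the miRNAs of 4 lists that were detected at D12, with open triangles for lower bounds where D0 was not detected. The solid line is the median of all miRNAs detected at D12 (1.84) and the dotted line a ratio of 2. miR-193b-3p (16.6) lies among the higher miRNAs of the favouring list, the opposing list reaches 18.2, and miR-451a among the cell type markers reaches 255.

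Markers of other cells moved over the same days. Of 12 marker miRNAs of red blood cells, leukocytes, liver, striated muscle and adipocytes, the D0 array detected 1, the D4 array 5 and the D12 and D16 arrays 8 each. Of all 1881 miRNAs these arrays detected 329, 426, 406 and 380. The summed signal of the markers from D0 to D16 was 9.40, 489, 2622 and 1719. Most of it came from miR-451a of red blood cells, whose D12/D0 ratio was 255. The D12/D0 bounds of miR-144-3p, miR-486a-5p and the leukocyte miR-223-3p were 21.7, 3.56 and 14.0. Of the adipocyte miRNAs, miR-143-3p was detected from D4 and miR-378a-3p from D12. miR-150-5p of lymphocytes and the muscle miRNAs miR-1a-3p, miR-133a-3p and miR-206-3p were not detected on any array. The part of RNA from such cells in the signals of miR-193a-3p, miR-193b-3p and miR-365-3p was not tested.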

How the data were processed

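RNA of the exosome fraction was labelled with Cy3 and hybridised to 4 arrays, 1 per day (D0, D4, D12 and D16). The authors deposited the output of Agilent Feature Extraction (version 11.0 by the processing notes) as intensity values: background-subtracted spot signals, probe signals with errors, and the total gene signal per miRNA, listed at 0.1 where not detected. The deposited intensity values are not scaled between arrays. The software's detection flags were also used.

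Ratios of total gene signals were computed without scaling, with technical errors propagated. The study's methods name division by D0, and a scaling step between arrays is not given in the sources used here, so that these ratios need not be those of the study. A miRNA not detected at D0 was taken at 3 times the error summed over its probes, which gives a lower bound. No test between days was made, because each day had 1 array, and this number sets the limit of precision. Of the arrays, D0 had 329 detected miRNAs, D4 426, D12 406 and D16 380.

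Alternatives tried were quantile normalization, scaling to the 75th or 90th percentile, to the 4 spike-in RNAs or to the effective spot size, other summaries of probes and spots, parts of the array, other rules of detection, floor, brightness filter and margin, and normexp (offset 50) of the median spot signals (limma 3.58.1, R 4.3.3). Python 3.11.15, numpy 2.4.6 and pandas 2.3.3 were used. Only a count above a fold threshold and the rank were tested on simulated data with known changes. The miRNAs named are the 3 members, the other arms, the lists, the 5 most similar courses per member and rank neighbours. The members and lists were chosen with earlier results of these data known. The comparison of courses between members was chosen after seeing the data. Sequences and coordinates are from RefSeq (GRCm38.p6), and the array header names mm9, but the array files hold no coordinates.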

Additional observations from a re-analysis of the deposited data

How the results depend on the processing

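The D12/D0 ratio of miR-193b-3p and the scaled bounds of the other 2 miRNAs stayed above 1, but their size moved. In the order miR-193a-3p (lower bounds where scaled), miR-193b-3p and miR-365-3p (lower bounds where scaled), it was 1.69, 5.04 and 2.45 with the 75th percentile, 2.39, 7.15 and 3.47 with the 90th percentile, 3.22, 9.63 and 4.67 with the spike-in RNAs, and 2.30, 5.98 and 3.16 after quantile normalization. With the effective spot size divided out the bounds of miR-193a-3p and miR-365-3p were 4.38 and 6.36. The mean of all spots gave 9.55 for miR-193b-3p. For miR-193a-3p and miR-365-3p it gave 16.7 and 7.46, but these and the values by part of the array and with normexp divide by D0 spots of undetected miRNAs and are no measured folds. The left part of the array gave 21.9 for miR-193a-3p and 10.6 for miR-365-3p, and the right part 14.6, 7.17 and 5.59 for the 3 miRNAs. Over the probes summed on both days miR-193b-3p was at 11.5, and miR-193a-3p and miR-365-3p had no such probe. Normexp, with its offset of 50 on every spot, gave 1.62, 1.98 and 1.89, so that 0 of the 3 remained above 2. The median over all miRNAs detected at D12 was 1.13 with normexp and 1.84 without scaling. Normexp also lowered the D16/D4 comparison of miR-193a-3p with miR-193b-3p to 1.30 and with miR-365-3p to 1.18. The alternatives for that comparison were chosen after seeing the data. Only 1 member could be counted over shared probes.

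All miRNAs with a D12/D0 ratio above 2 numbered 182 as reported, 38 with the 75th percentile, 57 with the 90th, 91 with the spike-in RNAs, 51 after quantile normalization, 102 with a margin of 2 technical errors, 121 in the right part of the array and 44 with normexp. What made the later arrays brighter was not tested. The D4/D0 bound of miR-193a-3p fell below 1 with the 75th percentile (0.518), the 90th percentile (0.746) and quantile normalization (0.700), where it gives no direction. That bound divides probe b alone at D4 by the D0 limit of both probes. The D16/D12 ratio of miR-365-3p turned above 1 with the 75th percentile (1.12), the 90th percentile (1.12), the spike-in RNAs (1.05) and quantile normalization (1.11). In the same order that of miR-193a-3p was 1.52, 1.52, 1.42 and 1.39, and that of miR-193b-3p 0.889, 0.888, 0.827 and 0.846. The D16/D4 ratio of miR-193b-3p, 1.00 without scaling, was 1.89, 1.86, 1.44 and 1.61. The 75th percentile over all miRNAs lay at the value listed for undetected miRNAs and could give no scaling. Of the 5 most similar courses, Pearson correlation kept 2 for miR-193a-3p, 2 for miR-193b-3p and 1 for miR-365-3p. No paired analysis was possible because each day had 1 array, and for the same reason no replicate could be left out.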
